A study of Mus musculus with 16 samples.

Results

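The cytochrome P450 (Cyp) gene family was followed across 4 treatment groups of mice with liver metastases. Its members were all genes in the count tables whose GRCm39 symbol starts with Cyp and a number, except Cyp4a10, Cyp4a14, Cyp4a31 and Cyp51, which gave 97 members in 39 subfamilies out of 21959 genes listed. All 97 were protein coding in GENCODE M39, 11 had no count in any mouse, and 65 passed the filter on low counts and were tested.

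The study injected MC38 cells, a mouse colon carcinoma line, into the spleen of C57BL/6 mice aged 6 weeks, so that tumors grew in the liver, and sequenced RNA from the tumor tissue. There were 4 mice in each group, all carrying MC38 tumors: control mice given PBS, mice given SB525334 at 20 mg/kg by mouth every day, mice given KN046 at 10 mg/kg into the peritoneum 2 times a week, and mice given both drugs, called the combination. SB525334 blocks the kinase ALK5, a receptor for TGF-β, while KN046 binds PD-L1 and CTLA-4 as a bispecific antibody. MC38 is a single cell line and the tissue was bulk tumor, so each value mixes tumor, stroma and any adjoining liver.

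Libraries held 18368994 to 23877131 counts each. Values below are in CPM, counts relative to the library total after edgeR's TMM scaling, and 3 counts in a mouse corresponded to 0.119 to 0.168 CPM. Fold changes are log2 values from edgeR's quasi-likelihood fit over all 16 mice, with the standard error (SE), and a gene was called when its p-value, adjusted by Benjamini-Hochberg over 13968 genes, was under 0.05. The labels give 1 library per mouse and no batch, and p-values measure the spread between these libraries.

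Some facts about the libraries bear on what follows. Control mice 1 and 2 formed a close pair, as did control mice 3 and 4. The median chi-square per gene between their counts was 1.26 and 0.959, against at least 2.59 for the other pairs within a group and 0.455 for pure counting noise. Across the 2 control pairs it was 8.38 to 9.15. The fits count 4 control mice, and p-values against control would be too small if the mice of a pair were not independent. With each pair summed, 44 members were called lower with SB525334 and 46 with the combination. The labels describe male mice, but the Y-linked genes Kdm5d, Uty and Ddx3y had 0 counts over all 16 libraries, Eif2s3y had 1, and the 169 genes listed on the Y chromosome had 2 counts in all. Among the members, Cyp4a12a, which is higher in male liver, had 1 count over all mice and Cyp4a12b had 0. Cyp2d9, also higher in male liver, stood at 4.34 to 7.86 CPM in control mice. Members known to be higher in female liver were present, with 8.14 to 13.0 CPM of Cyp2b9 and 2.19 to 5.54 CPM of Cyp3a41a in control mice. These members were picked for the sex check after their values had been seen.

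Cyp enzymes are heme proteins, mostly bound to the endoplasmic reticulum, that insert oxygen into drugs, sterols, fatty acids, retinoids and vitamin D with electrons from cytochrome P450 reductase. Hepatocytes carry most of the drug-metabolizing members of the Cyp1, Cyp2 and Cyp3 families and the bile acid enzymes, under nuclear receptors and liver factors such as Hnf4a. Other members, for example Cyp1b1 and Cyp26b1, are known from stromal and other cells. In mice several subfamilies are large arrays of close copies next to each other on a chromosome.

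Most of the liver-type members were lower with SB525334 and nearly lost with the combination. With KN046 alone 2 of the 65 tested members were called lower, where 2.4% of all tested genes were. The summed level of the 97 members was 1599, 1628, 1929 and 1899 CPM in the 4 control mice. It was 374, 451, 310 and 294 CPM with SB525334, and 272, 254, 269 and 254 CPM with the combination. It was 900, 1767, 1516 and 1252 CPM with KN046, so that 3 of the 4 KN046 mice lay below the lowest control mouse. At least 1 count was found for 74 to 76 members in control mice and for 41 to 44 with the combination. The highest member by CPM was Cyp2e1 in all control mice and Cyp20a1 in all SB525334 and combination mice.

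**Figure D1:**
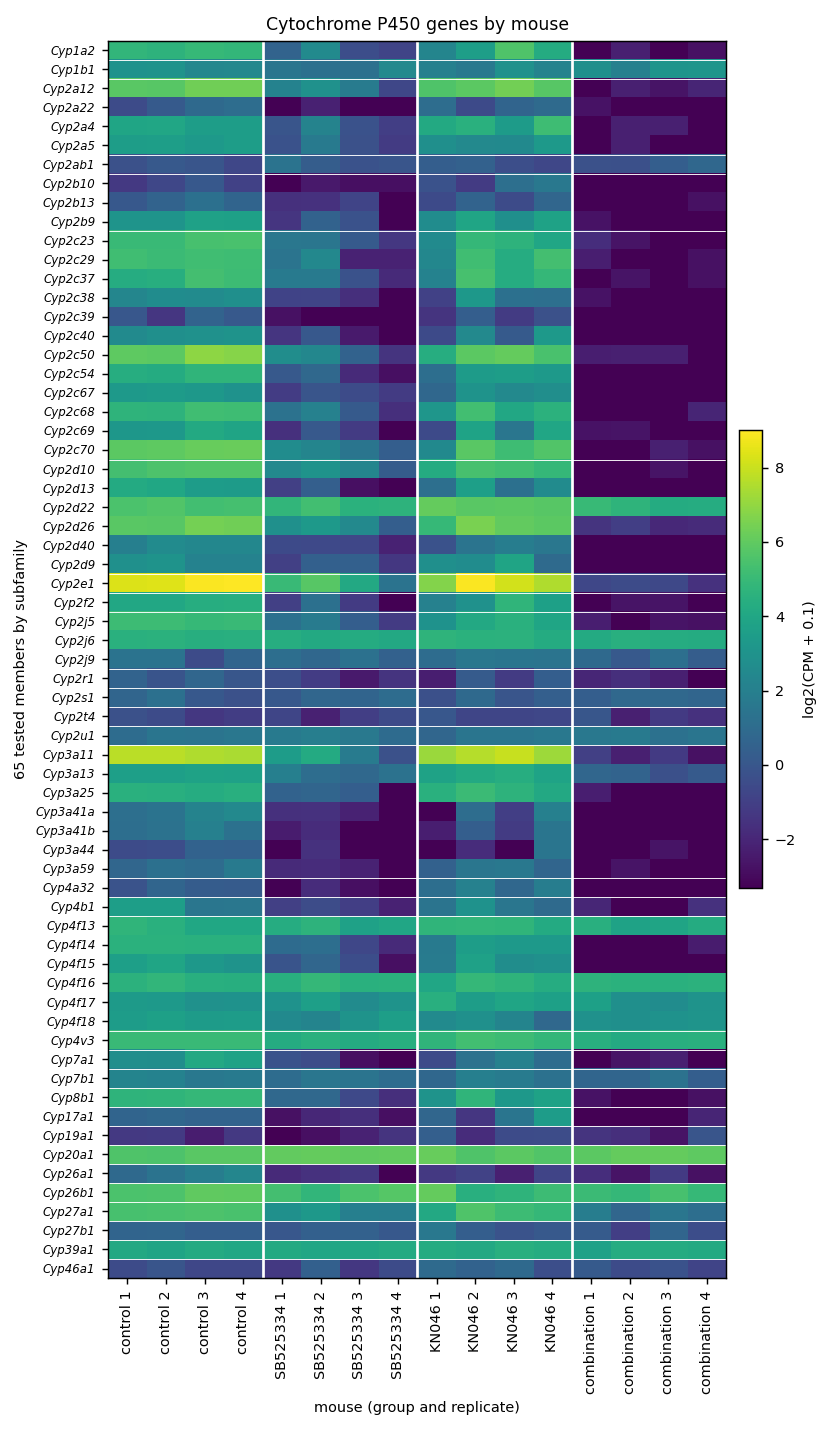
Level of the 65 tested members (rows, by subfamily) in the 16 mice (columns), as log2(CPM + 0.1); white lines part the groups and subfamilies. The KN046 columns are closer to the control columns than the other treated groups are for most rows, most rows darken with SB525334, and in the combination columns only a minority of rows such as Cyp20a1, Cyp2j6, Cyp4f16 and Cyp39a1 keep the control shade.

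With SB525334, 45 of the 65 tested members were called lower than control and 0 higher, where 9.22% of all tested genes were called lower and 0.394% higher. At an unadjusted p under 0.05, 1 member was higher, and DESeq2 called 46 lower and 0 higher. Here and below, shares over all tested genes are for edgeR's adjusted calls and were not counted for these other rules. The median log2 fold change was -3.73 over the tested members and 0.00 over all tested genes. With the combination, 48 were called lower and 0 higher, against a background of 9.74% lower and 1.37% higher, with 1 member higher at an unadjusted p under 0.05 and 0 higher by DESeq2. The fitted median was -7.53, or -4.29 when the 36 members with at most 3 counts in every combination mouse were set at 3 counts per mouse. Both treatments are compared with the same 4 control mice. Because the filter keeps a gene with enough counts in any 1 group, members high in control mice alone entered the test.

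The markers of the cell type moved with the members. The summed level of 14 hepatocyte markers, including Alb, Ttr and Apoa1, was 13838 to 15614 CPM in control mice, 343 to 1807 CPM with SB525334, 8660 to 17844 CPM with KN046 and 13.1 to 21.5 CPM with the combination. Relative to the control mean, SB525334 mice were at 7.99%, KN046 mice at 95.8% and combination mice at 0.115%, and none of the 14 was at 0 in a whole group. All 14 were called lower with SB525334 and with the combination. Epithelial markers (6 genes, including Epcam and Krt19) were at 23.6% and 6.399% of control with SB525334 and the combination, endothelial markers (6 genes) at 46.8% and 60.3%, and neutrophil markers (6 genes) at 10.7% and 42.1%. The last value rests on combination mouse 4, at 149 CPM, without which it was 11.5%. Macrophage markers (8 genes) were at 107.9% and 104%, fibroblast markers (8 genes) at 109% and 113%, T cell markers (5 of 6 found) at 65.1% and 125%, and adrenal markers (4 genes) at 105% and 163% of control. The adrenal sum was low, at 3.96 to 7.09 CPM in control mice. Of its 4 genes, 2 had 0 counts in the whole SB525334 group and 2 in the whole combination group. In bulk tissue, fewer hepatocytes and less RNA per hepatocyte cannot be told apart.

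**Figure D2:**
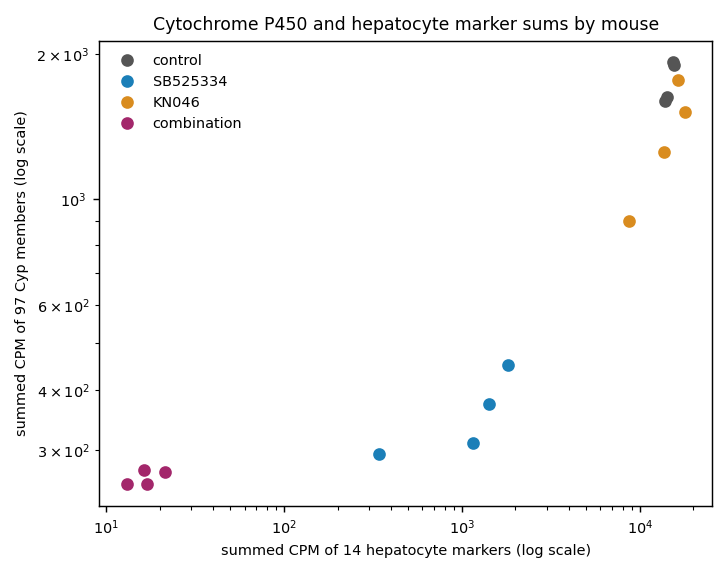
Summed CPM of the 97 Cyp members against the summed CPM of 14 hepatocyte markers, each point 1 mouse, both axes on a log scale. Control mice lie at the upper right with the KN046 mice beside or below them, SB525334 mice lie between 343 and 1807 CPM of markers, and combination mice lie at 13.1 to 21.5 CPM of markers with a member sum near 254 to 272 CPM.

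Among the members for drug and xenobiotic metabolism, 9 of the 10 tested were called lower with SB525334 and 9 with the combination, and 0 with KN046. Of all tested genes, 9.22%, 9.74% and 2.4% were called lower in the same 3 comparisons. Cyp2e1, which oxidizes ethanol and small solvents, had the highest level per kilobase of exon in control mice. It was at 327, 335, 488 and 496 CPM in the control mice, at 32.8, 54.7, 17.3 and 2.50 CPM with SB525334, and at 0.513, 0.607, 0.546 and 0.236 CPM with the combination. With KN046 it was at 104, 483, 285 and 183 CPM. Every SB525334 mouse lay below every control mouse, every combination mouse lay below every SB525334 mouse, and 3 of the 4 KN046 mice lay below the control range. The log2 fold change was -3.94 (SE 0.61) with SB525334 at an edgeR adjusted p of 0.000145, and -9.76 (SE 0.88) with the combination at an edgeR adjusted p of 1.39e-07. With KN046 it was -0.64 (SE 0.54) at an adjusted p of 0.498.

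Cyp3a11, the main Cyp3a enzyme of mouse liver and a target of the pregnane X receptor, stood at 212, 214, 185 and 176 CPM in control mice. It stood at 11.1, 18.6, 3.44 and 0.732 CPM with SB525334 and at 0.411, 0.110, 0.328 and 0.0471 CPM with the combination. The KN046 mice, at 140, 196, 250 and 149 CPM, lay on both sides of the control range. The log2 fold change was -4.53 (SE 0.55) with SB525334 and -9.76 (SE 0.81) with the combination, at edgeR adjusted p-values of 1.14e-05 and 5.12e-08. Cyp3a13 belongs to the same subfamily. Its level was 12.4 to 13.6 CPM in control mice, 1.68 to 3.93 CPM with SB525334, 13.5 to 20.1 CPM with KN046 and 0.710 to 1.59 CPM with the combination. Its log2 fold changes were -2.36 (SE 0.26) with SB525334 and -3.43 (SE 0.28) with the combination, at edgeR adjusted p-values of 3.71e-06 and 3.42e-08, and all combination mice still had counts of it.

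Cyp1a2, which metabolizes caffeine and arylamines, went from 25.1 to 30.4 CPM in control mice to 0.474 to 5.77 CPM with SB525334, and had 3 counts in all with the combination. Cyp2f2, known from lung and liver for naphthalene, went from 16.6 to 21.2 CPM to 0.00 to 2.23 CPM with SB525334. Cyp2c29, Cyp2a5, Cyp2d9 and Cyp2b10, all liver drug enzymes, were called lower with SB525334, at log2 fold changes of -4.14, -3.12, -2.84 and -3.52. The call of Cyp2b10 rests on low counts, since its control mice had 0.306 to 0.964 CPM, and was lost without control mouse 3 (adjusted p 0.0549) or SB525334 mouse 1 (adjusted p 0.0554). With the 8 mice alone it did not pass the filter. The member not called was Cyp1b1, which acts on estrogens and polycyclic hydrocarbons outside hepatocytes. It was at 5.17 to 7.999 CPM in control mice, 2.24 to 5.38 CPM with SB525334 and 4.03 to 8.39 CPM with the combination, with log2 values of -1.06 (SE 0.34) and 0.08 (SE 0.33) at edgeR adjusted p-values of 0.0566 and 0.919. DESeq2 (adjusted p 0.01905) and the fit without SB525334 mouse 4 (adjusted p 0.00622) called it lower with SB525334. Cyp1a1, the classical target of the aryl hydrocarbon receptor, had 24 counts over all mice and was not tested.

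**Figure D3:**
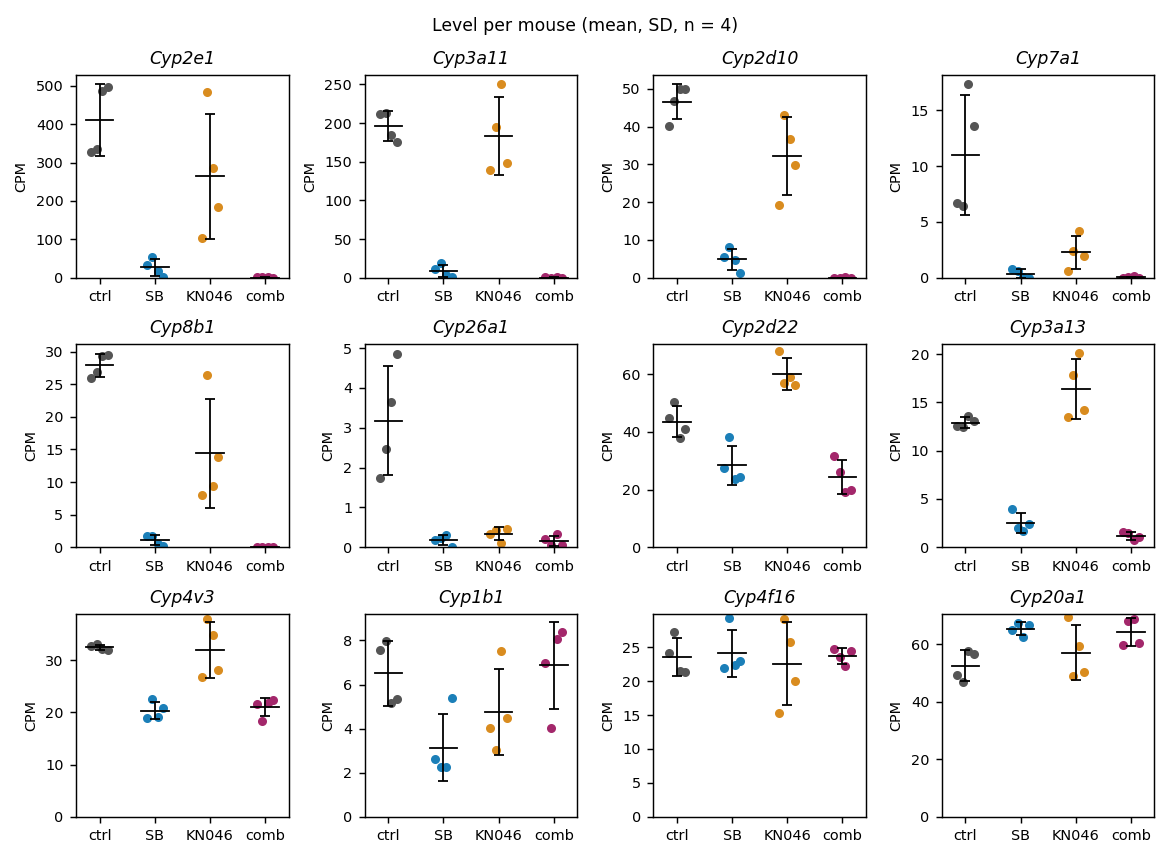
CPM of 12 members in each mouse by group (points), with the mean and SD of 4 mice, each axis from 0. The upper panels show members that are near 0 with the combination, Cyp2d22, Cyp3a13 and Cyp4v3 keep part of their level, and Cyp1b1, Cyp4f16 and Cyp20a1 overlap control or lie above it.

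The bile acid members divided. Cyp7a1, the rate-limiting enzyme of the classical pathway, was at 6.69, 6.39, 17.3 and 13.6 CPM in control mice, with mice 3 and 4 apart from mice 1 and 2. It was at 0.768, 0.637, 0.0430 and 0.00 CPM with SB525334, and at 0.586, 2.38, 4.19 and 1.92 CPM with KN046. With the combination it had 3 counts in all 4 mice. Its log2 fold change was -4.90 (SE 0.74) with SB525334, at an edgeR adjusted p of 0.000116. With KN046 all 4 mice lay below all control mice, but the log2 value of -2.28 (SE 0.63) missed the threshold at an edgeR adjusted p of 0.0504, and its adjusted p over the alternatives went from 0.0372 to 0.263. For the combination the ratio of summed counts was 277 to 1, with a 95% counting interval of 94.3 to 1343.

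Cyp8b1, the sterol hydroxylase that sets the share of cholic acid, was at 25.9 to 29.4 CPM in control mice and 0.215 to 1.72 CPM with SB525334, with 2 counts in all with the combination. Its log2 fold change with SB525334 was -4.72 (SE 0.47) at an edgeR adjusted p of 1.88e-06, and the summed counts with the combination were 1071 times lower than control (95% counting interval 296 to 8850). Cyp27a1, a mitochondrial sterol side chain hydroxylase found in many cell types, kept a low level in every SB525334 and combination mouse. Its level was 41.9 to 46.8 CPM in control mice, 3.79 to 9.47 CPM with SB525334 and 1.60 to 3.59 CPM with the combination, at log2 fold changes of -2.86 (SE 0.32) and -4.14 (SE 0.35). The oxysterol hydroxylases Cyp7b1 and Cyp39a1 differed from these. Cyp7b1 was called lower with the combination alone, at -1.18 (SE 0.30) and an edgeR adjusted p of 0.0131, and lost that call without control mouse 1 (adjusted p 0.0521), without combination mouse 4 (0.05603) and with the control pairs summed (0.0675). Cyp39a1 was at 14.3 to 18.7 CPM in control mice, 15.4 to 18.2 CPM with SB525334 and 13.1 to 19.8 CPM with the combination, and was called in none of the 3 comparisons with control. Cyp46a1, the cholesterol hydroxylase of neurons, had 0.301 to 1.81 CPM in all mice and was also not called.

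Retinoic acid clearance held the larger of the 2 falls called with KN046. Cyp26a1, the inducible retinoic acid hydroxylase of liver, was at 1.75, 2.46, 3.65 and 4.86 CPM in control mice. It was at 0.320, 0.438, 0.112 and 0.468 CPM with KN046, at 0.181, 0.239, 0.301 and 0.00 CPM with SB525334, and at 0.205, 0.0552, 0.328 and 0.0471 CPM with the combination. All 12 treated mice lay below all control mice, and the 3 treated groups overlapped each other. Its log2 fold changes were -3.21 (SE 0.58) with KN046, -4.09 (SE 0.61) with SB525334 and -4.29 (SE 0.64) with the combination, at edgeR adjusted p-values of 0.0151, 0.000107 and 7.05e-05. The KN046 call was lost without KN046 mouse 1 (adjusted p 0.0573) and with the control pairs summed (adjusted p 0.144), and over all alternatives its adjusted p went from 1.80e-05 to 0.144. Cyp26b1, the retinoic acid hydroxylase of connective tissue, was at 45.6 to 64.2 CPM in control mice, 27.2 to 54.1 CPM with SB525334 and 29.8 to 43.1 CPM with the combination. Its log2 values of -0.39 (SE 0.28) and -0.67 (SE 0.28) did not pass the test. All combination mice lay below all control mice, and the 8 mice fitted alone gave a call with the combination (edgeR adjusted p 0.0153). Cyp26c1 had 44 counts over all mice and was not tested.

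Vitamin D and steroid hormone members were scarce. Cyp2r1, the main liver enzyme that starts vitamin D activation, had 0.805 to 1.57 CPM in control mice and up to 0.221 CPM in combination mice, and its log2 fold change was -3.24 (SE 0.76) at an edgeR adjusted p of 0.00662. Cyp27b1, which completes that activation, had 0.386 to 2.93 CPM in all mice and was not called, and Cyp24a1 had 6 counts in all. Of the steroid hormone enzymes, Cyp17a1 was at 1.41 to 1.66 CPM in control mice and up to 0.215 CPM with SB525334, and was called lower with SB525334 and the combination. Its call with SB525334 was lost without SB525334 mouse 1 (adjusted p 0.0525). KN046 mice had 1.60, 0.292, 2.68 and 11.01 CPM of it, a spread wider than that of any other group. Cyp19a1, the aromatase, had 0.00 to 1.23 CPM and was not called, while Cyp11a1, Cyp11b1, Cyp11b2 and Cyp21a1 had 58, 2, 2 and 35 counts over all mice and were not tested.

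Of the members for fatty acids and eicosanoids, 5 of the 10 tested were called lower with SB525334, the same number with the combination, and 1 with KN046. The shares of all tested genes called lower were 9.22%, 9.74% and 2.4%. Cyp4f14 and Cyp4f15, liver hydroxylases of leukotriene B4 and related lipids, were among the members called lower with SB525334 and the combination. Cyp4f14 was at 22.4 to 23.7 CPM in control mice, 0.172 to 2.11 CPM with SB525334 and 3.25 to 11.6 CPM with KN046, with 2 counts with the combination. Cyp4f15 was at 7.89 to 15.1 CPM in control mice and had 0 counts with the combination, at least 71.6-fold lower than control when each combination mouse is set at 3 counts. Cyp2j5, an arachidonic acid epoxygenase of liver and kidney, was at 30.2 to 35.2 CPM in control mice and 0.345 to 3.42 CPM with SB525334. Cyp4b1 was at 11.7, 12.0, 2.74 and 2.87 CPM in control mice, which followed the 2 close pairs, and was lower with SB525334 at -4.21 (SE 0.69). Cyp4v3, a fatty acid hydroxylase related to the human gene of a corneal and retinal dystrophy, was at 32.0 to 33.1 CPM in control mice, 18.8 to 22.6 CPM with SB525334 and 18.4 to 22.3 CPM with the combination. Its log2 fold changes of -0.68 and -0.63 (SE 0.12 each) passed at edgeR adjusted p-values of 0.000558 and 0.000958.

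The remaining lipid members were not called with SB525334 or with the combination. Cyp4f16 was at 24.1, 27.3, 21.5 and 21.3 CPM in control mice and at 24.8, 23.5, 22.2 and 24.4 CPM with the combination, a log2 value of 0.01 (SE 0.17). Cyp2j6, an epoxygenase of many tissues, was at 21.1 to 23.2 CPM in control mice and 18.6 to 21.5 CPM with the combination. Cyp4f13 and Cyp2j9 were not called in any comparison with control. Cyp4f18, the leukotriene B4 hydroxylase of neutrophils, was called lower with KN046. It was at 10.7 to 12.9 CPM in control mice and at 5.92, 7.10, 4.69 and 1.66 CPM with KN046, a log2 fold change of -1.24 (SE 0.33) at an edgeR adjusted p of 0.0460. That call was lost without any 1 control mouse and without KN046 mouse 1, 3 or 4, and its adjusted p over the alternatives went from 0.00599 to 0.255. Neutrophil markers were at 18.0% of control in the same group, and at 10.7% with SB525334, where Cyp4f18 was not called. The part of these markers in the result was not tested.

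**Figure D4:**
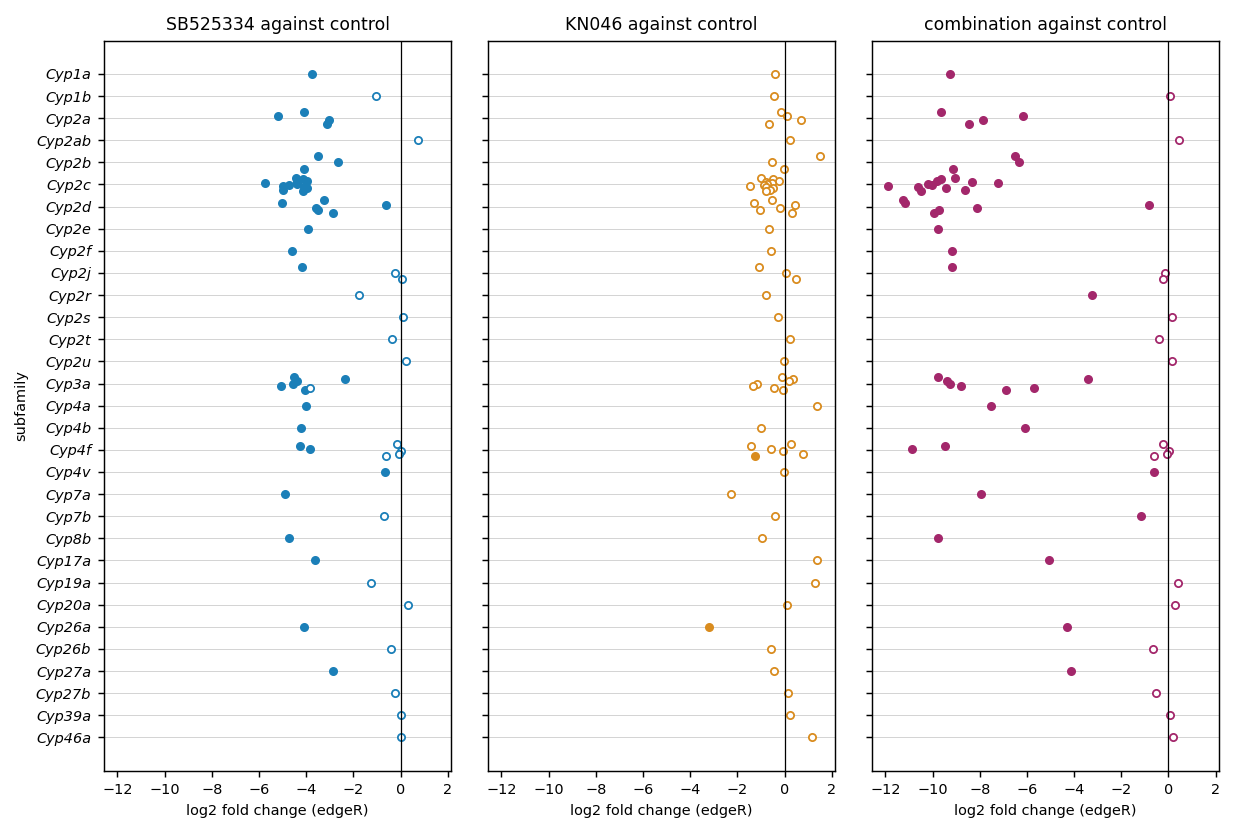
log2 fold change against control of the 65 tested members by subfamily (rows) for each treatment, on 1 scale; filled points passed the test and open points did not. The lowest values in the combination panel come from genes with few or no counts there and depend on the fit. All 12 Cyp2c members are low with SB525334 and the combination, while Cyp2d22 lies far above the other Cyp2d members, Cyp2j5 far below the other Cyp2j members, and Cyp4f14 and Cyp4f15 far below the other Cyp4f members.

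Cyp20a1, an orphan enzyme with no settled substrate, was at 49.2, 46.7, 57.5 and 56.5 CPM in control mice, 64.8, 67.3, 62.5 and 66.8 CPM with SB525334, and 59.8, 68.0, 68.8 and 60.4 CPM with the combination. All SB525334 and combination mice lay above all control mice, but the log2 values of 0.32 and 0.29 (SE 0.11 each) did not pass, at edgeR adjusted p-values of 0.0948 and 0.114. It passed with SB525334 when libraries were scaled by total count (adjusted p 0.0142) or when the 8 mice were fitted alone (adjusted p 0.0304). Cyp2ab1 had the highest fitted log2 value with both treatments, 0.75 with SB525334 and 0.46 with the combination, at 0.523 to 0.994 CPM in control mice and 0.775 to 2.49 CPM with SB525334, and was not called. Cyp2s1 and Cyp2u1, extrahepatic members, were not called, with log2 values of 0.11 and 0.25 with SB525334. Cyp2w1 had 1 count over all mice and Cyp4x1 had 0.

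Members of 1 subfamily did not always move alike. All 12 tested Cyp2c members were called lower with SB525334, with log2 fold changes from -5.76 to -3.95, and all 12 with the combination. The 4 Cyp2a and the 3 tested Cyp2b members were all lower in both comparisons, which called 9.22% and 9.74% of all tested genes lower. Of the 6 tested Cyp2d members, 5 had log2 fold changes of -2.84 or lower with SB525334, while Cyp2d22 was at 45.0, 50.3, 38.0 and 40.9 CPM in control mice and at 27.5, 38.2, 23.5 and 24.5 CPM with SB525334. Its log2 fold change of -0.62 (SE 0.17) passed at an edgeR adjusted p of 0.0237 but was lost when a mouse was left out in 5 of 8 cases, namely control mouse 1 or 2 or SB525334 mouse 1, 3 or 4. Over all alternatives its adjusted p went from 0.00270 to 0.114. With the combination Cyp2d22 stood at 19.3 to 31.7 CPM, while Cyp2d10, which lies close to it on chromosome 15 (chr15:82284102-82291404, GRCm39), had 40.1 to 49.9 CPM in control mice and 1 count in all with the combination. The ratio of summed counts of Cyp2d10 was 3573 to 1 (95% counting interval 641 to 141167). In the same way Cyp2j5 fell and Cyp2j6 and Cyp2j9, next to it on chromosome 4, were not called, and Cyp4f14 and Cyp4f15 fell while Cyp4f13, Cyp4f16 and Cyp4f17, on the same stretch of chromosome 17, were not called against control.

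The size of the fall among called members ran from -5.76 (Cyp2c39) to -0.62 (Cyp2d22) with SB525334. Cyp2a22 (-5.18) and Cyp3a41b (-5.08) were next to the lower end, all 3 with few counts in SB525334 mice, and Cyp4v3 and Cyp3a13 next to the upper. With the combination the lowest fitted values were those of Cyp2c54 (-11.90), Cyp2d10 (-11.26) and Cyp2d13 (-11.17). Cyp2c54 and Cyp2d13 had 0 counts in the combination and were at least 149-fold and 89.6-fold lower than control. In all, 12 tested members had 0 counts in the 4 combination mice and a further 24 had at most 3 counts in any of them. By level per kilobase of exon in control mice, Cyp2e1 (146 CPM per kb) and Cyp3a11 (37.8) led, followed by Cyp2d26 (33.3), Cyp2c70 (23.8) and Cyp2c50 (23.7). Cyp2d26 was at 56.1 to 86.6 CPM in control mice and 0.164 to 0.386 CPM with the combination, and was still counted in every mouse.

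With KN046 alone, 2 members (Cyp26a1 and Cyp4f18) were called lower and 0 higher than control, where 2.4% of all tested genes were called lower and 1.6% higher. At an unadjusted p under 0.05, 9 were lower and 5 higher, and DESeq2 called 2 lower and 2 higher (Cyp4a32 and Cyp4f17). The shares of all tested genes by these rules were not counted, so the counts cannot be set against a background. The median log2 value of the tested members was -0.45, against -0.03 over all tested genes. The count is unsteady. Without KN046 mouse 1 it was 0, without KN046 mouse 2 it was 6 lower and 3 higher, without any other mouse of the comparison it was 1, and with the control pairs summed it was 0. KN046 mouse 1 had the lowest member sum of its group, 900 CPM, and the lowest hepatocyte marker sum, 8660 CPM. Cyp2c70 shows this spread, at 5.70, 58.4, 35.9 and 50.3 CPM with KN046 against 58.6 to 71.9 CPM in control mice.

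Adding KN046 to SB525334 went with lower levels again. Against SB525334, 26 members were called lower with the combination and 0 higher, where 3.03% of all tested genes were called lower and 0.544% higher. At an unadjusted p under 0.05, 1 member was higher, and DESeq2 called 30 lower and 1 higher (Cyp1b1), with shares over all tested genes not counted. The fitted median was -3.52, or -1.50 with the 27 members at their bound. When the 8 mice of the 2 groups were fitted without the others, 7 were called lower. Against KN046, 47 members were called lower and 0 higher, with a background of 14.5% and 9.89%. At an unadjusted p under 0.05 no member was higher, and DESeq2 called 48 lower and 0 higher. Cyp4f17 was called in this comparison and not against control, at 11.7 to 21.4 CPM with KN046 and 6.33 to 12.8 CPM with the combination. Its call was lost without KN046 mouse 1 or combination mouse 2, 3 or 4, at the threshold of the study, and in a fit of these 8 mice only (adjusted p 0.104). SB525334 mouse 4 had the lowest hepatocyte marker sum of its group, 343 CPM, and without it 27 members were called lower against SB525334 and 1 higher.

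The interaction compares the change under SB525334 in mice given KN046 with that in mice not given it. In it 19 members were called lower and 0 higher, against 2.55% and 1.73% of all tested genes by the same rule. With shares over all tested genes not counted, 3 members were higher at an unadjusted p under 0.05, and 26 were lower and 2 higher by DESeq2. The lowest were Cyp2d10 at -7.47 (SE 1.02), Cyp2d9 at -7.40 (SE 1.57) and Cyp4f15 at -6.46 (SE 1.69), at edgeR adjusted p-values of 0.000247, 0.0141 and 0.0457. Cyp2e1, Cyp3a11 and Cyp8b1 were at -5.18, -5.13 and -4.10, and Cyp3a13 was at -1.41 (SE 0.36). When each of the 16 mice was left out in turn, the calls of Cyp2d10, Cyp2d9, Cyp2e1 and Cyp3a11 held each time, while that of Cyp4f15 was lost 13 times, that of Cyp8b1 11 times and that of Cyp3a13 8 times. These values lean on counts near 0 in the combination, so their size depends on the fit. The member sums above cannot decide whether there is such a difference. As a share of the control mean they were 14.9% for the combination, 77.0% for KN046 and 20.2% for SB525334. What remained with the combination came in good part from members that were not called against control. Cyp20a1 alone made up 22.0% to 26.8% of the sum in combination mice. The sums therefore hardly register a further loss of members already near 0. The interaction was not tested on the sums. The number called fell to 12 without control mouse 1 or control mouse 2, to 11 without combination mouse 2 or 3, to 8 without combination mouse 4, and to 8 with the control pairs summed. Of the 14 hepatocyte markers, 13 were called lower in the interaction, and their part in the members' values was not tested.

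Set against the hepatocyte markers, the members separated into those that moved with the markers and those that did not. Each member's count was divided by the summed count of the 14 markers in the same mouse. With SB525334, 10 members had a lower ratio in all 4 mice than in any control mouse, where 0.623% of all tested genes did, 21 had a higher ratio in all 4, where 93.9% of all tested genes did, and 34 overlapped. Cyp3a11 had 112 to 153 counts per 10000 marker counts in control mice and 21.3 to 103 with SB525334. Cyp8b1 had 18.7 to 19.0 and 4.84 to 12.1, and Cyp2c54 had 13.6 to 17.4 and 1.26 to 9.47. The ratios of Cyp2e1 overlapped. Cyp20a1 had 32.9 to 37.3 in control mice and 373 to 1946 with SB525334. With KN046, 12 members had a lower ratio than any control mouse and 1 a higher one, against 5.08% and 1.64% of all tested genes. Cyp26a1 and Cyp7a1 had the lowest ratios of means, at log2 values of -3.03 and -2.32, and Cyp3a13 was the one above control. No ratio was compared for the combination, whose marker counts were close to 0. With Alb alone as the denominator, 4 members were below control with SB525334 and 22 above. With KN046, 12 were below and 2 above. The shares over all tested genes were not counted for Alb, and Cyp3a11 overlapped control with SB525334.

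**Figure D5:**
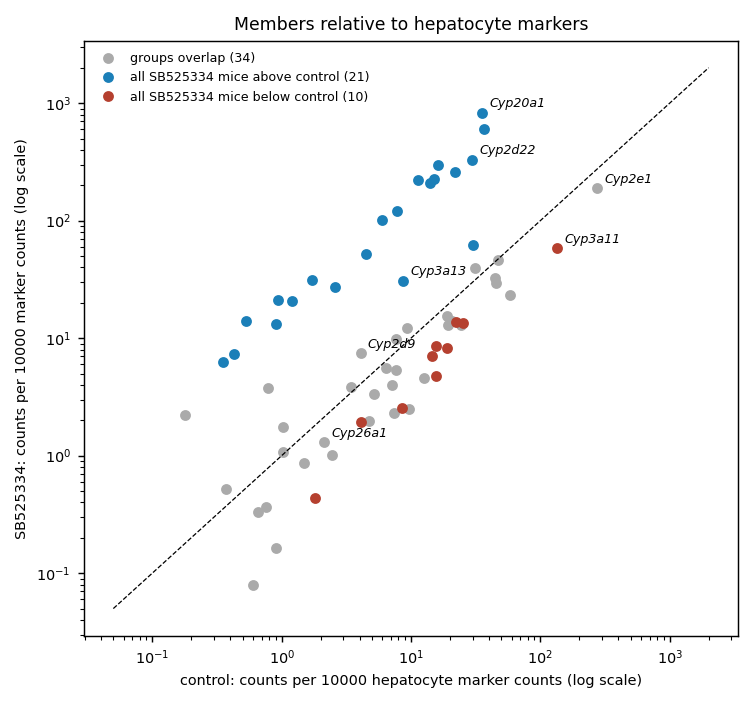
Counts of each of the 65 tested members per 10000 hepatocyte marker counts, as the mean of 4 control mice (x) and 4 SB525334 mice (y), both on a log scale, with the line of equality dashed. The 21 members in blue above the line include Cyp20a1 and Cyp2d22, the 10 in red below it include Cyp3a11, and Cyp2e1 lies close to it.

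Partners of the enzymes were called in part. Por, the reductase that feeds microsomal Cyp enzymes, was at a mean of 138 CPM in control mice, 125 CPM with SB525334 and 125 CPM with the combination, and was not called against control. Of 7 electron transfer genes, 2 (28.6%, against 9.22% and 9.74% of all tested genes) were lower in each of the comparisons of SB525334 and of the combination with control. Cyb5a and Pgrmc1 had log2 fold changes of -1.07 and -0.55 with SB525334 (SE 0.16 and 0.10). Of 9 genes of heme synthesis and breakdown, 1 was lower with SB525334 (11.1%) and 2 with the combination (22.2%). Alas1, the first enzyme of heme synthesis, was lower in both, at -0.58 and -0.61 (SE 0.11 each), Cpox was lower with the combination at -0.41 (SE 0.12), and Fech was higher with KN046 at 0.45 (SE 0.12), where 1.6% of all tested genes were higher. The call of Cpox was lost without control mouse 3 or 4 or combination mouse 2 or 4, with adjusted p-values over the alternatives of up to 0.110. That of Fech was lost without any mouse of the comparison except KN046 mouse 2, with adjusted p-values of up to 0.281.

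Of 15 regulators listed, 14 were tested, and 10 were called lower with SB525334 (71.4%, against 9.22% of all tested genes), 11 with the combination (78.6%, against 9.74%) and 1 with KN046 (7.14%, against 2.4%), with 0 higher. Hnf4a, a nuclear receptor that drives liver genes, had a mean of 80.0 CPM in control mice, 5.32 CPM with SB525334, 64.3 CPM with KN046 and 0.0273 CPM with the combination. The pregnane X receptor gene Nr1i2 had 7.89, 0.575, 8.53 and 0.00 CPM in the same order. Nr0b2, a target of the bile acid receptor that represses Cyp7a1, was the regulator called lower with KN046, at 5.42 CPM in control and 1.29 CPM with KN046 (log2 -2.06, SE 0.47, edgeR adjusted p 0.0289). That call was lost without any 1 control mouse and without KN046 mouse 1 or 3, and its adjusted p over the alternatives went up to 0.212. Arnt, Vdr and Rara were not called in any of the 3 comparisons with control. The regulators are themselves liver genes for the most part, and the markers of hepatocytes moved with them.

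Promoter sequence was set beside these groups of members, from 250 bases before to 50 bases after the Ensembl canonical start of each gene in GRCm39 (GENCODE M39), on both strands. The binding core of Hnf4 (CAAAGTCCA) was in 8 of the 45 members that were lower with SB525334 and with the combination (17.8%). It was in 0 of the 17 tested members lower in neither, and in 0.454% of 21579 promoters. At so low a share over all promoters, 0 of 17 does not set that group apart. The Hnf1 half-site (GTTAAT) was in 20.0%, 0.00% and 6.93%, and TATAAA was in 55.6%, 17.6% and 13.2% of the same 3 sets. The Ahr-Arnt core GCGTG was in 8.89%, 52.9% and 37.0%, and the median GC content was 46.3%, 54.3% and 54.3%. The part of base composition in these motif shares was not tested. The windows below show the Hnf4 core in capitals with its flanks, 5′ to 3′ on the strand of the gene, to let its setting in unlike subfamilies be compared. Those of Cyp2c40 and Cyp2c69 are the same, as are those of Cyp3a41a and Cyp3a41b. Cyp2c40 also shares 97.69% to 98.1% of its coding sequence with Cyp2c67, Cyp2c68 and Cyp2c69, so the matches are not independent.
Cyp8b1 (chr9:121745405-121745463, minus strand): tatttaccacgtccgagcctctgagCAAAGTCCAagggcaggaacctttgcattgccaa
Cyp2c40 (chr19:39801270-39801328, minus strand): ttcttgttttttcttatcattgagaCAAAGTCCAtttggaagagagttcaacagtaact
Cyp2c67 (chr19:39637578-39637636, minus strand): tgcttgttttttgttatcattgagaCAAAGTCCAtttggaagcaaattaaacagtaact
Cyp2c68 (chr19:39729589-39729647, minus strand): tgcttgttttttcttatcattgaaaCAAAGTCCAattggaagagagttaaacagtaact
Cyp3a41a (chr5:145657008-145657066, minus strand): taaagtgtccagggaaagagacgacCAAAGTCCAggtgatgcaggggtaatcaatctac

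The next windows lie just before the start of 2 members that were lower and 1 that was not called, picked after their values were seen to show how base composition can differ, with a match to TATAAA or its reverse complement, or to GCGTG, in capitals. Those of Cyp3a11 and Cyp2d10, called lower with SB525334 and with the combination, hold a TATA match and 0 CpG. That of Cyp20a1, which was not called, holds 8 CpG and no TATA match. The sets are not uniform, since the full promoters of Cyp26a1 and Cyp4v3, both called lower, hold 22 and 20 CpG, as many as the 20 of Cyp20a1 or more. A match is a description of the letters and was not tested as a binding site.
Cyp3a11 (chr5:145816868-145816987, minus strand): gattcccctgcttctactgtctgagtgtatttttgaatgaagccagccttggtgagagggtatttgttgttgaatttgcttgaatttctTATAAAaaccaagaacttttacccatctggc
Cyp2d10 (chr15:82291405-82291524, minus strand): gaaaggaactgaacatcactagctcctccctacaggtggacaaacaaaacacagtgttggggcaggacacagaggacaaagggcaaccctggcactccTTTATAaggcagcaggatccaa
Cyp20a1 (chr1:60382338-60382443, plus strand): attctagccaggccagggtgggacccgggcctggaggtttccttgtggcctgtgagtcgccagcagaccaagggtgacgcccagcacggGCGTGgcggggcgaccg

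Close copies limit what a single member's count means. Of the 97 members, 34 had another member with at least 90% identity of the coding sequence (24 of them tested), and 21 had one with at least 95% (17 tested). Cyp3a41a and Cyp3a41b shared 99.87%, Cyp2a4 and Cyp2a5 98.45%, Cyp2c40 and Cyp2c68 98.1%, and Cyp3a25 and Cyp3a59 97.48%. Reads of such pairs may have been split or dropped in counting, so values of single members are uncertain, and so are differences between the Cyp2c40, Cyp2c67, Cyp2c68 and Cyp2c69 genes. Cyp4a32 and Cyp4b1 overlap on opposite strands of chromosome 4, and the strand setting of the counting is not given in the sources used here.

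Of the 32 members that did not pass the filter, 11 had 0 counts in all mice, among them Cyp2j11, Cyp2j12, Cyp2j13 and Cyp2c66, and the others had 1 to 58 counts over the 16 mice. They include the adrenal enzymes named above, and Cyp2c55, Cyp2g1 and Cyp3a16 with 39, 40 and 41 counts. With no filter on low counts, Cyp1a1 was called lower with SB525334, where it had 0 counts against 12 in control mice, and Cyp2g1 was called lower with the combination, where it had 0 against 25. DESeq2 also called Cyp2g1 lower with the combination. The other members that did not pass the filter were called in no comparison under any alternative.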

How the data were processed

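RNA of MC38 liver metastases from 16 mice, 4 per group, was analysed, with 1 library per mouse. Per the labels and the study's methods, the authors used cutadapt (2.7) for trimming, HISAT2 (2.2.1) for alignment to GRCm39 and HTSeq (2.0.4) for counting per gene. The authors deposited raw counts per gene, which were used here, and counts divided by DESeq2 (1.38.3) size factors, which were not. How strand and multiply aligned reads were handled is not given in the sources used here, so overlapping genes and close copies are uncertain.

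Genes were filtered with filterByExpr (minimum count 10), scaled by TMM and tested with the quasi-likelihood F test of edgeR 4.0.16 in R 4.3.3, in 1 fit over all 16 mice with 6 contrasts and no covariates. P-values were adjusted by Benjamini-Hochberg over 13968 genes, and the SE is the absolute log2 fold change divided by the square root of F. The common biological coefficient of variation was 20.1%. The scripts were tested on simulated data. Counting intervals are exact 95% intervals, and these and the floor of 3 counts per mouse cover counting error only. Alternatives were DESeq2 1.42.0, RLE and total count scaling, 2 other filters, the 8 mice of a comparison alone, a replicate block, the 2 close pairs of control libraries each summed, the study's threshold (a fold change over 2 with an unadjusted p under 0.05), and leaving out each mouse.

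The members and gene lists were chosen with earlier results of these data known. Values are given for members of the listed roles, the 5 highest per kilobase in control mice, those called in the interaction and the 3 at each end of the calls. Protein identity was not analysed, and the coding sequence identity given in its place (edlib 1.3.9.post1) was chosen after the data had been seen. Same-numbered mice of different groups did not deviate together, with correlations from -0.37 to 0.407 over 24 pairs, against -0.397 to 0.398 over 72 pairs with different numbers, so the numbers were not taken to pair the mice.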

Additional observations from a re-analysis of the deposited data

Results flagged for a closer look

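In 203 groups of 4 mice, 21 members' groups held a mouse that stood apart from the other 3 by Dixon's criterion, where chance gives about 1 in 20 groups, or 10.15. That rate is for normally spread values. A group with counts in 1 mouse and 0 in the other 3 always meets the criterion, so the excess over 10.15 is not read as a result. Of the 21, 11 concern values at or near 0. In combination mice the high value was 0.141 CPM for Cyp17a1 and Cyp2c68, 0.0513 CPM for Cyp2a22 and Cyp2b9, 0.110 CPM for Cyp2a5, 0.0546 CPM for Cyp2d10, 0.103 CPM for Cyp3a25 and 0.0943 CPM for Cyp4f14, each against 0 in the other mice, and the low value was 0.00 CPM for Cyp2c50. In SB525334 mice the high value was 0.119 CPM for Cyp2a22 and 0.0452 CPM for Cyp2c39, again against 0. The other 10 were at higher levels. With SB525334 they were 5.38 CPM of Cyp1b1 (next 2.62), 4.46 CPM of Cyp2a4 (next 0.859), 3.22 CPM of Cyp2a5 (next 0.768), 29.3 CPM of Cyp4f16 (next 23.0) and, on the low side, 0.129 CPM of Cyp2d40 (next 0.516). In control mice they were a low 0.101 CPM of Cyp19a1 (next 0.306), a low 34.03 CPM of Cyp2c29 (next 36.5) and a high 4.01 CPM of Cyp3a41b (next 2.41). With KN046 they were a high 7.78 CPM of Cyp4b1 (next 2.74) and a low 18.3 CPM of Cyp4f13 (next 26.3).

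By edgeR's interaction term, the change under SB525334 differed between mice given KN046 and mice not given it for 19 members. Cyp2d10 (-7.47), Cyp2d9 (-7.40), Cyp4f15 (-6.46), Cyp2c67 (-5.71), Cyp2c37 (-5.61), Cyp2c70 (-5.59), Cyp2a4 (-5.52) and Cyp2a12 (-5.43) had the lowest log2 values. Those of Cyp3a25 (-5.19), Cyp2e1 (-5.18), Cyp2d40 (-5.18), Cyp3a11 (-5.13), Cyp2b9 (-5.00), Cyp2c68 (-4.99), Cyp2a5 (-4.65), Cyp2d26 (-4.37), Cyp8b1 (-4.10) and Cyp2j5 (-3.89) followed, and Cyp3a13 (-1.41) was the smallest. Of the 14 hepatocyte markers, 13 were called lower in the same term.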

How the results depend on the processing

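Counts of called members that moved by over 1.5 times were these. Total count scaling called 1 member higher with SB525334 and 1 with the combination (Cyp20a1 both times), and 1 lower with KN046. Fitting the 8 mice alone called 1 higher with SB525334, 1 lower with KN046 and 7 lower for the combination against SB525334. A mean of at least 1 CPM left 1 lower with KN046, since Cyp26a1 was then not tested. With the control pairs summed, 0 were lower with KN046 and 8 in the interaction. DESeq2 called 2 higher with KN046, 1 higher for the combination against SB525334 and 2 higher in the interaction. The study's threshold gave 7 lower and 3 higher with KN046, 1 higher for the combination against SB525334, and 30 lower and 3 higher in the interaction. With Alb alone as the denominator, 4 members lay below control with SB525334 and 2 above with KN046. For Alb and for all other alternatives in this section, the shares over all tested genes were not counted.

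Leaving out each mouse gave 42 to 46 members lower with SB525334, 46 to 48 with the combination, 44 to 47 for the combination against KN046, 19 to 27 lower and 0 to 1 higher for the combination against SB525334, 0 to 6 lower and 0 to 3 higher with KN046, and 8 to 24 lower and 0 to 1 higher in the interaction. With the replicate block, 1 member was lower with KN046 and 14 in the interaction, 13 of them shared with the fit without the block. Same-numbered mice did not deviate together, so the block is given here only.

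Values of single members kept their direction and their side of the threshold in 3836 of 4094 refits of 240 values. Signs that turned belong to values near 0 that were not called: Cyp1b1 with the combination (-0.00868) and Cyp46a1 with SB525334 (-0.0217) under the replicate block, Cyp2b9 with KN046 under DESeq2 (0.000424), RLE scaling (0.00278) and the 8 mice alone (0.00959), and Cyp4f16 with the combination under total count scaling (-0.000513). In the other 40 turned refits 1 mouse was left out, and the lowest and highest log2 values were as follows. With SB525334 they were -0.20 and 0.29 for Cyp2j9, -0.086 and 0.45 for Cyp2s1, -0.030 and 0.099 for Cyp39a1, -0.60 and 0.24 for Cyp46a1, and -0.064 and 0.12 for Cyp4f16. With KN046 they were -0.44 and 0.34 for Cyp27b1, -0.13 and 0.38 for Cyp2a22, -0.24 and 0.18 for Cyp2b9, -0.68 and 0.11 for Cyp2c37, -0.42 and 0.051 for Cyp2d26, -0.26 and 0.62 for Cyp2d9, -0.55 and 0.076 for Cyp2s1, -0.14 and 0.13 for Cyp2u1, -0.28 and 0.011 for Cyp3a11, -0.20 and 0.086 for Cyp4f16, and -0.11 and 0.051 for Cyp4v3. With the combination they were -0.54 and 0.76 for Cyp19a1, -0.026 and 0.27 for Cyp1b1, -0.041 and 0.49 for Cyp2s1, -0.0048 and 0.38 for Cyp46a1, and -0.027 and 0.085 for Cyp4f16. Except where a sentence above gives it, the cause was not tested. Near 0 counts, depth limits the size of a fold, and 3 counts stood for 0.119 to 0.168 CPM.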
